A study of Rattus norvegicus with 9 samples.

Results

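Relt and 8 further receptors of the tumour necrosis factor (TNF) receptor family were followed in the superior mesenteric artery of rats after haemorrhage. The 9 members were taken by symbol from a table of read counts for 37203 genes, namely Relt, Tnfrsf1a, Tnfrsf1b, Tnfrsf12a, Tnfrsf11b, Tnfrsf21, Fas, Ltbr and Cd40, and all 9 were among the 15482 genes that passed the filter on low counts. Relt was selected on its level in these same libraries, where it was higher at 4 h, so its levels and fold changes are given as a description with no test. The other 8 were taken as relatives of Relt that the artery expresses.

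The arteries came from Sprague-Dawley rats aged 8 weeks. There were 3 normal libraries, 3 from 1 h of ischemia and 3 from 4 h. The methods text speaks of 3 individuals. Rats were killed at the end of ischemia before the artery was taken, so under that procedure the groups cannot share rats. The labels number the samples of a group without naming rats or pooling. The p-values therefore measure only the spread between these samples. Ischemia was set up under pentobarbital by bleeding through a catheter in the right femoral artery, and time ran from when the model was established. No genetic change or drug treatment is named for any group, and which steps of the procedure the normal rats underwent is not stated. The vessel was sampled whole, so fewer cells of a type and less RNA per cell cannot be told apart in what follows. Nothing states that a replicate number ties a normal sample to an ischemic one.

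Receptors of this family sit in the cell membrane and bind ligands of the TNF family, most of which are made as trimers. Some carry a death domain inside the cell that recruits Tradd or Fadd and can lead to caspase activation, while others bind TRAF adapters and switch on NF-kappa-B and stress kinases. In the vessel wall the best known effect is inflammatory activation of endothelium and smooth muscle, with adhesion molecules and chemokines as targets. Relt belongs to the TRAF-binding branch, has no generally accepted TNF-family ligand, and is known to bind the kinases OSR1 and SPAK, the products of Oxsr1 and Stk39.

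Libraries held 13114273 to 15504240 assigned reads, and levels are given below as CPM, read counts scaled to one common library total after correction by the trimmed mean of M values. In these libraries 1 CPM stood for 12.1 to 17.9 reads. Smooth muscle markers were abundant in every library, at a summed 10410 to 65400 CPM, and endothelial markers summed to 572 to 1704 CPM. The amount of nerve tissue differed between libraries of the same group: the 24 nerve and Schwann cell genes summed to 4479, 141 and 1005 CPM in normal replicates 1, 2 and 3, to 9398, 2973 and 10220 CPM at 1 h, and to 368, 1998 and 10060 CPM at 4 h. Nerve content also differed between groups: 14 of the 24 genes were higher in every 1 h library than in every normal one. At 4 h that held for 1 of them. Of all genes, 26.3% had groups that did not overlap, in either direction, at 1 h and 18.7% at 4 h. Macrophage markers summed to 41.7 to 235 CPM, lymphocyte markers to 1.74 to 43.4 CPM and neutrophil markers to 0.0827 to 2.77 CPM. Fibroblast markers summed to 1747 to 4411 CPM, adipocyte markers to 298 to 2295 CPM and mesothelial markers to 0.335 to 5.49 CPM.

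Relt was low in normal artery and higher at both times. Its level was 4.03, 2.77 and 2.07 CPM in normal replicates 1, 2 and 3, from 72, 38 and 28 reads. At 1 h it was 13.5, 18.6 and 7.93 CPM. At 4 h it was 79.5, 48.1 and 27.7 CPM, from 962, 580 and 420 reads. Every 1 h library lay above every normal library, and every 4 h library lay above every 1 h library. Of all genes, 26.3% had groups that did not overlap at 1 h against normal, and 6.24% had them between 4 h and 1 h. The lowest 4 h value exceeded the highest 1 h value by less than the range within either ischemia group.

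The group means of Relt were 2.96 ± 0.99 CPM in normal artery, 13.3 ± 5.33 CPM at 1 h and 51.8 ± 26.1 CPM at 4 h (SD, n = 3 each). The fitted log2 fold change against normal was 2.17 (4.49-fold) at 1 h and 4.12 (17.4-fold) at 4 h, and that of 4 h against 1 h was 1.96 (3.88-fold). The spread within a group grew with the mean. Leaving out each library in turn left the log2 fold change between 1.85 and 2.46 at 1 h and between 3.65 and 4.42 at 4 h.

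**Figure D1:**
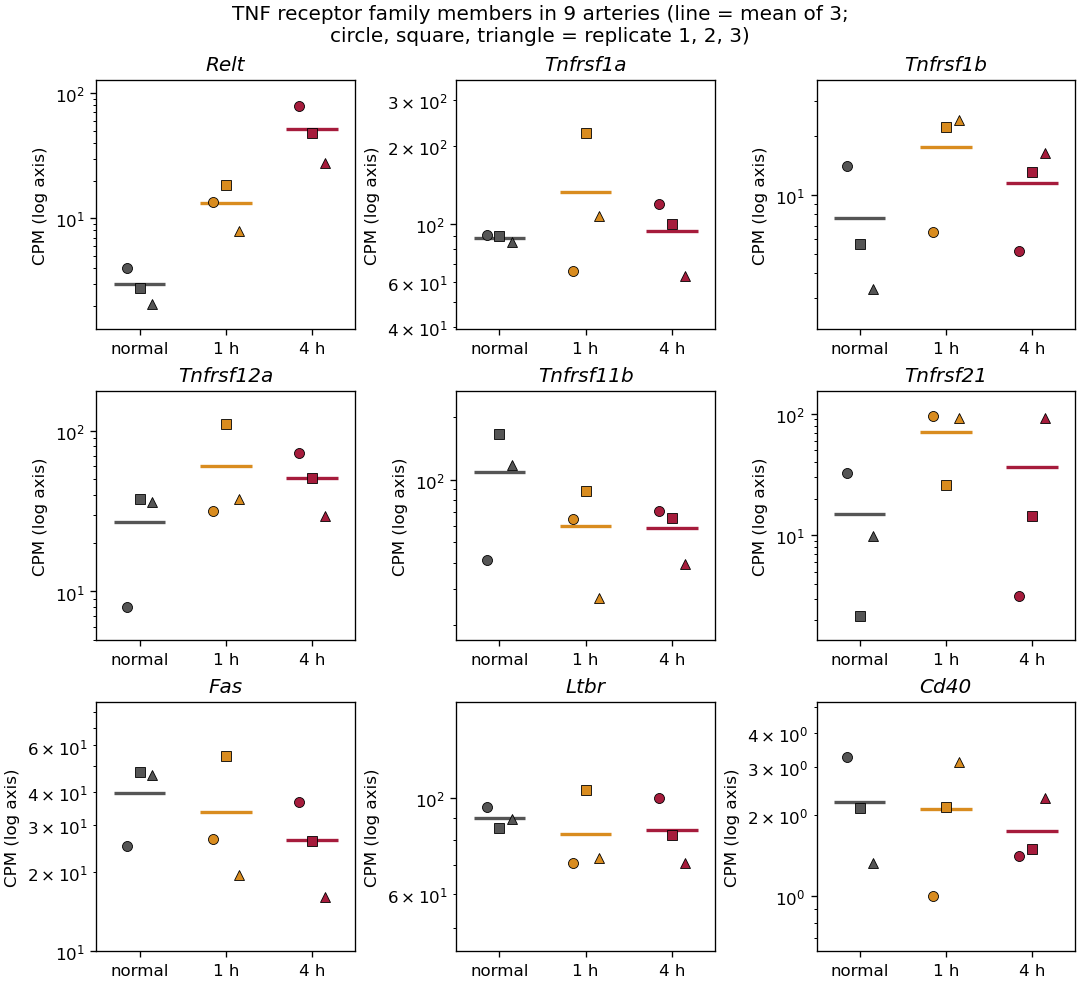
Level of each of the 9 members in CPM on a log axis, with 1 point per library and the mean of the 3 libraries of a group as a bar. Relt separates into 3 steps, from 2.07 to 4.03 CPM in normal artery to 27.7 to 79.5 CPM at 4 h, while the ranges of the other 8 members overlap between the groups.

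Within the ischemia groups, the order of the Relt levels matched the order of the summed smooth muscle markers, which were 23860, 43640 and 11930 CPM in 1 h replicates 1, 2 and 3 and 65400, 46540 and 22760 CPM at 4 h. In normal artery the order was the opposite, with 10410 CPM in replicate 1, where Relt was 4.03 CPM, and 45710 CPM in replicate 3, where Relt was 2.07 CPM. The part of smooth muscle content in these levels was not tested. When a score from the nerve genes was added to the fit, Relt had log2 fold changes of 2.56 at 1 h and 4.01 at 4 h.

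The upstream bases of Relt are shown because it is the member with the distinct time course. The RefSeq window of 250 bases lies at chr1:164626280-164626529 on the minus strand of GRCr8. Its start site is 10428 bases inside the annotated span of Relt (chr1:164619059-164636707), so it may not be the start used by the transcripts counted here.
Relt: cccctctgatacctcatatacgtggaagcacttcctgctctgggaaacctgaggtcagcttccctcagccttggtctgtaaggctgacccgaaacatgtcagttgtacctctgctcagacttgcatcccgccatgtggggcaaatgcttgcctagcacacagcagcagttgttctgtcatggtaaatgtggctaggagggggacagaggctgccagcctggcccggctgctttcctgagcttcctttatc
Both strands of each window were searched for TGACGTCA and its shorter form TGACG (binding letters of CREB-type factors), TGANTCA (AP-1), the kappa-B consensus and ACGTG (the core of hypoxia response elements). The capital letters used in such sequences mark matches to all but ACGTG, and the Relt window held none of these, with a single ACGTG at -231 to -227 from the start site. ACGTG is common, being present in 16.6% of 33469 rat windows of that length. Windows were found for 7 of the 9 members, all but Tnfrsf11b and Cd40. Among the 7, AP-1 letters stood in Tnfrsf1b (TGAGTCA at -186 to -180) and Fas (TGAATCA at -205 to -199), against 6.34% of all windows, and the kappa-B consensus stood in none, against 3.54%. A match is a description of the letters and not of a bound site.

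The 8 members other than Relt overlapped between the groups in every comparison, and none passed the test. In edgeR's quasi-likelihood test over all 15482 genes, a gene was called at a Benjamini-Hochberg adjusted p under 0.05 with a change of over 1.5-fold. Relt was picked on these values and is left out of the counts that follow. At 1 h, 0 of the 8 were called by edgeR, where 0.0581% of all genes were (9 genes), and 0 by DESeq2, where 4.53% of all genes were. At 4 h, 0 of the 8 were called by edgeR, where 0.0904% of all genes were (14 genes), and 0 by DESeq2, where 3.91% were. Between 4 h and 1 h, 0 of the 8 and 0% of all genes were called by edgeR and by DESeq2, and 400 genes (2.58%) had a raw p under 0.05. In simulated data the edgeR call at 4 h recovered 0% of genes changed 2-fold and 22% of those changed 4-fold. It could therefore miss changes of that size in the members.

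In the main edgeR fit the raw p was under 0.05 for 0 of the 8 in each of the 3 comparisons, where 16.7% of all genes were at 1 h and 12.4% at 4 h. Other fits differed. At 1 h, with Relt counted, 2 members were under 0.05 by DESeq2, 3 with the nerve score and 4 without normal replicate 1. Of all genes 21.3%, 10.1% and 17.1% were in those fits. Groups that did not overlap were seen for 0 of the 8, where 26.3% of all genes had them at 1 h, 18.7% at 4 h and 6.24% between the times. The log2 fold changes of the 8 ran from -0.85 (Tnfrsf11b) to 2.26 (Tnfrsf21) at 1 h and from -0.89 (Tnfrsf11b) to 1.30 (Tnfrsf21) at 4 h.

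**Figure D2:**
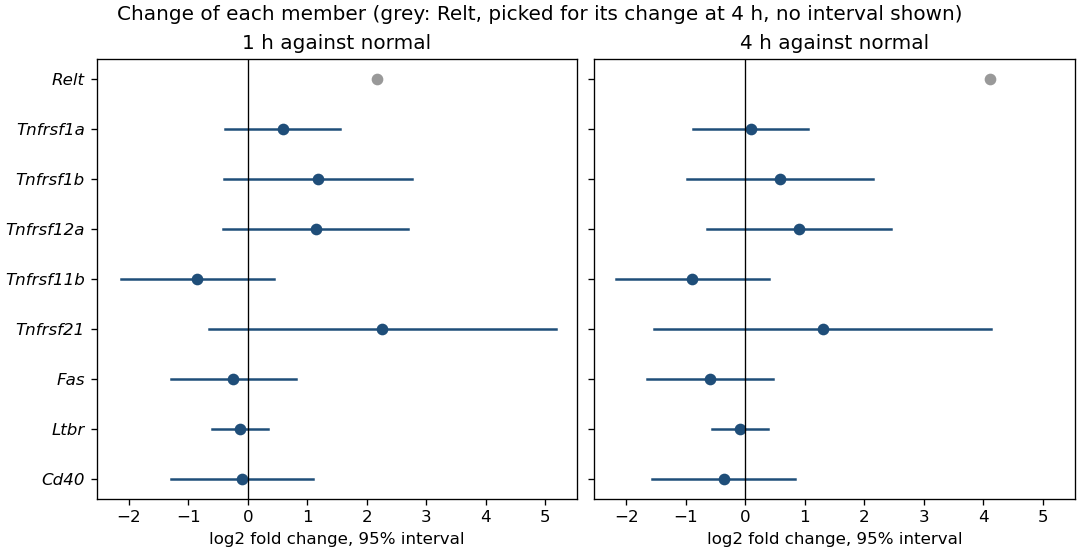
Fitted log2 fold change of each member at 1 h and 4 h against normal, with its 95% interval as a line. Relt is a grey point without an interval because it was picked for this change, and the intervals of the other 8 members all include 0.

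Among the receptors with a death domain, Tnfrsf1a, the main receptor for soluble TNF on most cells, was even in normal artery. It stood at 90.5, 89.8 and 85.2 CPM in normal replicates 1, 2 and 3, at 66.0, 224 and 108 CPM at 1 h, and at 120, 100 and 62.9 CPM at 4 h. Replicate 2 at 1 h was high and the other ischemic libraries lay on both sides of the normal ones. The log2 fold change was 0.58 at 1 h (SE 0.42, adjusted p = 0.458 by edgeR) and 0.09 at 4 h (SE 0.42, adjusted p = 0.949 by edgeR). Without 1 h replicate 2 the 1 h value was -0.03. At 4 h a rise or fall of more than about 1 on the log2 scale lay outside the 95% interval, which ran from -0.88 to 1.06.

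Fas, the receptor for Fas ligand that triggers apoptosis, ranged from 16.0 to 54.8 CPM over the 9 libraries. Its mean was 39.7 ± 12.8 CPM in normal artery, 33.6 ± 18.7 CPM at 1 h and 26.2 ± 10.3 CPM at 4 h (SD, n = 3 each). The log2 fold change at 4 h was -0.60 with an interval of -1.66 to 0.46 (adjusted p = 0.614 by edgeR), and at 1 h it was -0.24 (adjusted p = 0.796 by edgeR).

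Tnfrsf21, also called death receptor 6 and known from neurons and T cells, varied most among the members, with its highest value 44.0 times the lowest. It stood at 32.6, 2.19 and 9.82 CPM in normal replicates 1, 2 and 3, at 96.3, 25.7 and 92.4 CPM at 1 h, and at 3.14, 14.4 and 92.4 CPM at 4 h. The high libraries were those rich in nerve genes: the 3 libraries above 90 CPM were the 3 with the highest nerve sums, from 9398 to 10220 CPM. Ngfr, the low-affinity neurotrophin receptor of the same family and a Schwann cell marker, was at 314, 306 and 314 CPM in those 3 and at 3.07 to 80.3 CPM in the rest. The log2 fold change of Tnfrsf21 was 2.26 at 1 h (SE 1.27, adjusted p = 0.356 by edgeR) and 1.30 at 4 h (SE 1.24, adjusted p = 0.682 by edgeR). Without normal replicate 1 these were 3.57 and 2.61, without normal replicate 2 the 4 h value was 0.82, and without 4 h replicate 3 it was -0.76. In the fit with the nerve score the changes were 0.35 (SE 0.50) at 1 h and 0.76 (SE 0.43) at 4 h. That score was 5.67, 0.35 and 4.37 in normal replicates 1, 2 and 3 and 7.72, 5.66 and 7.95 at 1 h. It partly follows the 1 h group, so for any member this fit cannot separate nerve content from ischemia. The part of nerve content in these levels was not tested.

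**Figure D3:**
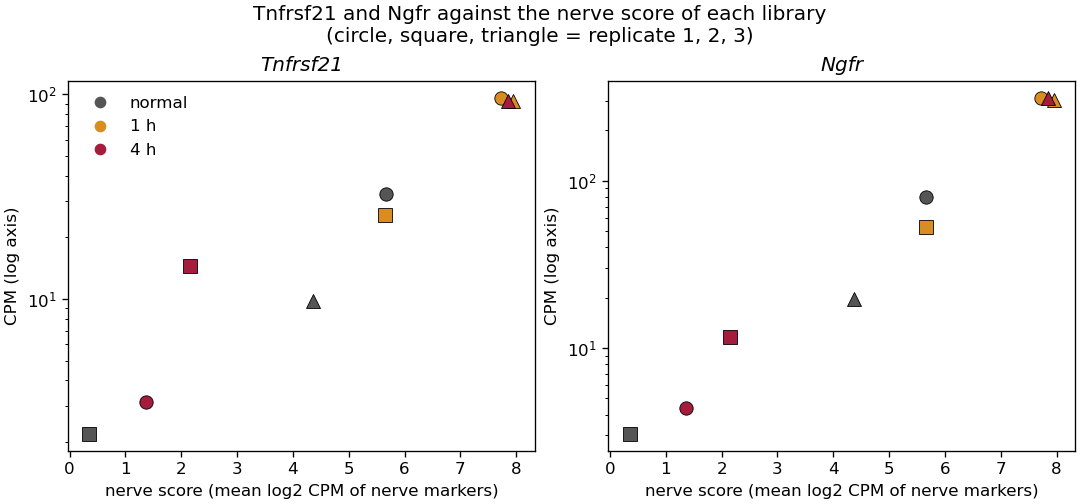
Level of Tnfrsf21 in each library against the amount of nerve RNA in that library, coloured by group. Tnfrsf21 is highest, at 92.4 to 96.3 CPM, in the 3 libraries with the highest nerve scores. These are 1 h replicates 1 and 3 and 4 h replicate 3, so none of them is a normal library.

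Among the receptors without a death domain, Tnfrsf12a, also called Fn14, is the receptor for Tnfsf12 (TWEAK) and is known to be induced in injured tissue. It stood at 7.95, 37.4 and 36.2 CPM in normal replicates 1, 2 and 3, at 31.8, 110 and 37.7 CPM at 1 h, and at 72.2, 50.5 and 29.5 CPM at 4 h. Normal replicate 1 was low and 1 h replicate 2 high, and the remaining values of the 3 groups were mixed. The log2 fold change was 1.14 at 1 h (SE 0.68, adjusted p = 0.375 by edgeR) and 0.90 at 4 h (SE 0.68, adjusted p = 0.602 by edgeR). Without 1 h replicate 2 the 1 h value was 0.35, and without normal replicate 1 it was 0.70. The 4 h value was 0.46 without normal replicate 1 and 0.53 without 4 h replicate 1. In the fit with the nerve score the 1 h value was 2.04 (SE 0.60, adjusted p = 0.344 by edgeR). Its ligand Tnfsf12 stood at 59.4 ± 8.33 CPM in normal artery, 40.9 ± 14.0 CPM at 1 h and 47.7 ± 9.98 CPM at 4 h (SD, n = 3 each), with adjusted p = 0.325 and 0.644 by edgeR.

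Tnfrsf1b, the TNF receptor that prefers membrane-bound TNF, stood at 14.1, 5.62 and 3.32 CPM in normal replicates 1, 2 and 3, at 6.49, 22.1 and 24.0 CPM at 1 h, and at 5.21, 13.0 and 16.4 CPM at 4 h. A pair of 1 h libraries lay above all normal ones and the remaining 1 h library lay among them. The log2 fold change was 1.19 at 1 h (SE 0.69, adjusted p = 0.367 by edgeR) and 0.58 at 4 h (SE 0.68, adjusted p = 0.746 by edgeR). Without normal replicate 1, which also had the highest macrophage sum at 235 CPM, the values were 1.97 and 1.36. The 4 h value was 0.91 without 4 h replicate 1, 0.24 without 4 h replicate 3 and 0.22 without normal replicate 3. Macrophage sums in 1 h replicates 2 and 3, where Tnfrsf1b was highest, were 96.7 and 215 CPM. The part of macrophages in these levels was not tested.

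Ltbr, the lymphotoxin beta receptor of stromal cells, was the steadiest member, with a highest value only 1.47 times the lowest. It averaged 90.0 ± 4.95 CPM in normal artery, 82.6 ± 18.7 CPM at 1 h and 84.4 ± 14.6 CPM at 4 h (SD, n = 3 each). The 95% interval of its log2 change ran from -0.59 to 0.34 at 1 h and from -0.56 to 0.38 at 4 h. Cd40, the receptor for the T cell ligand Cd40lg, was at 1.00 to 3.25 CPM, from 15 to 58 reads, and its intervals ran from -1.29 to 1.10 at 1 h and from -1.56 to 0.84 at 4 h. Counting error alone is 25.8% at the lowest of these read numbers.

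Tnfrsf11b, or osteoprotegerin, is a secreted decoy for Tnfsf11 (RANKL) and Tnfsf10 (TRAIL) and is made by vascular smooth muscle. It stood at 41.2, 166 and 118 CPM in normal replicates 1, 2 and 3, at 64.7, 88.4 and 27.2 CPM at 1 h, and at 70.5, 65.3 and 39.4 CPM at 4 h. A pair of normal libraries was above all ischemic ones and normal replicate 1 was among the lowest. The log2 fold change was -0.85 at 1 h (SE 0.56, adjusted p = 0.418 by edgeR) and -0.89 at 4 h (SE 0.56, adjusted p = 0.548 by edgeR). Without normal replicate 1 these were -1.24 and -1.28, and without normal replicate 2 they were -0.44 and -0.46. Without 1 h replicate 3 the 1 h value was -0.53. In the fit with the nerve score the 1 h value was -0.01.

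Between 4 h and 1 h the other 8 members had log2 fold changes of -0.96 to 0.03, with adjusted p of 0.856 to 0.984 by edgeR. Without 4 h replicate 3 that of Tnfrsf21 was -3.02. The libraries did not order the members in one way: 1 h replicate 2 held the highest level of 4 members, Tnfrsf1a, Tnfrsf12a, Fas and Ltbr.

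Of 19 other receptors and receptor-like genes of the family, 12 passed the filter. None was called by edgeR at either time, and DESeq2 called 0 at 1 h and 1 at 4 h, Tnfrsf26, which was lower. Of all genes DESeq2 called 4.53% at 1 h and 3.91% at 4 h in either direction. By unadjusted p under 0.05, 3 were higher and 2 lower at 1 h, and 1 was higher and 3 lower at 4 h. Of all genes 7.98% were higher and 8.67% lower at 1 h by that measure, and 5.07% higher and 7.35% lower at 4 h. Tnfrsf25, the receptor for Tnfsf15 known from lymphocytes, was at 7.12 ± 3.13 CPM in normal artery and 2.27 ± 0.85 and 2.21 ± 0.77 CPM at 1 h and 4 h (SD, n = 3 each), with adjusted p = 0.232 and 0.228 by edgeR. Tnfrsf26 had log2 fold changes of -1.31 (adjusted p = 0.240) and -1.96 (adjusted p = 0.134 by edgeR). Tnfrsf10b, the rat TRAIL receptor, had 0.82 at 1 h (adjusted p = 0.285 by edgeR) and Tnfrsf9, a costimulatory receptor of T cells, had 1.56 at 1 h and 1.49 at 4 h (adjusted p = 0.290 and 0.400 by edgeR). Without 4 h replicate 3 the 4 h value of Tnfrsf9 was 0.78, and in the fit with the nerve score it was 1.29. Outside the naming rule, and named after their values were seen, Rell2 (a homologue of Relt) made up the 3 higher at 1 h and Eda2r the 3 lower at 4 h. Rell2 was high in the 3 libraries richest in nerve RNA, at 20.1, 8.23 and 8.98 CPM, and at 0.166 to 1.20 CPM in the rest. Rell1, the other Relt homologue, had log2 fold changes of 0.56 and 0.19 (adjusted p = 0.567 and 0.907 by edgeR).

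Of 18 ligands, 6 passed the filter, among them Tnfsf12, and 6 had at most 3 reads in any library. Lta and Tnfsf11 had no read in any of the 9 libraries, where a count of 0 allows up to 0.168 to 0.249 CPM by the limit of 3 counts, a limit that covers counting error only. Tnf was counted once in normal replicate 1, 3 times, once and once at 1 h, and never at 4 h, so no change in it was detectable at this depth. Tnfsf10, or TRAIL, was at 54.8, 14.5 and 12.2 CPM in normal replicates 1, 2 and 3, at 5.02, 7.22 and 7.86 CPM at 1 h, and at 1.41, 7.88 and 4.23 CPM at 4 h. Every ischemic library was below every normal one, beside 26.3% of all genes with groups that did not overlap at 1 h and 18.7% at 4 h. The change did not pass edgeR's test (log2 fold change -2.02 and -2.59, adjusted p = 0.270 and 0.219 by edgeR). Without normal replicate 1, the highest library, these were -0.99 and -1.56. DESeq2 called it at 4 h (adjusted p = 0.0143 by DESeq2), beside 3.91% of all genes, and called no ligand at 1 h, beside 4.53%. No other ligand had an unadjusted p under 0.05.

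Of the 37 adapters, kinases and brakes listed, 36 were in the table and 35 passed the filter. None was called by edgeR at either time. DESeq2 called 2 higher (Tnfaip3 and Birc3) and 1 lower (Traf1) at 1 h, beside 4.53% of all genes in either direction. At 4 h it called 2 higher (Tnfaip3 and Traf6) and 2 lower (Traf1 and Casp8), beside 3.91% of all genes. By raw p under 0.05, 5 were higher and 4 lower at 1 h, beside 7.98% and 8.67% of all genes, and 2 were higher and 4 lower at 4 h, beside 5.07% and 7.35%. Traf1, an adapter that binds Relt and is itself induced by NF-kappa-B, was at 5.10 ± 2.43 CPM in normal artery, 1.34 ± 0.14 CPM at 1 h and 0.58 ± 0.30 CPM at 4 h (SD, n = 3 each). Its log2 fold change was -1.93 at 1 h and -3.12 at 4 h (adjusted p = 0.210 and 0.0721 by edgeR), and without normal replicate 1 it was -1.46 and -2.66. Casp8, the initiator caspase of death receptors, had -1.23 and -1.82 (adjusted p = 0.232 and 0.115 by edgeR), and without normal replicate 1 it had -0.79 and -1.38. Normal replicate 1, which had the highest Traf1 and Casp8, also had a lymphocyte sum of 29.9 CPM against 1.77 to 2.70 CPM in the other normal libraries. The highest lymphocyte sum, 43.4 CPM, was in 1 h replicate 3, where Traf1 was at 1.47 CPM and Casp8 at 3.01 CPM. The part of lymphocytes was not tested.

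Traf6, an adapter for the CD40 and interleukin 1 receptors, had a log2 fold change of 1.22 at 4 h (adjusted p = 0.178 by edgeR). Tnfaip3, or A20, the deubiquitinase that brakes TNF signalling, went from 17.1 ± 4.30 CPM in normal artery to 122 ± 63.2 CPM at 1 h and 92.9 ± 83.2 CPM at 4 h (SD, n = 3 each), with adjusted p = 0.210 and 0.223 by edgeR. Its log2 fold change at 4 h was 2.44, and 1.43 without 4 h replicate 3. Birc3, an inhibitor of apoptosis bound to TRAF2, had a log2 fold change of 2.63 at 1 h (adjusted p = 0.225 by edgeR). Of the Relt-binding kinases, Oxsr1 averaged 144, 137 and 162 CPM in normal, 1 h and 4 h artery (adjusted p = 0.914 and 0.849 by edgeR), and Stk39 25.7, 44.0 and 33.6 CPM (adjusted p = 0.312 and 0.680 by edgeR).

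Of the 18 known NF-kappa-B and TNF target genes, 16 passed the filter, and their median log2 fold change was 2.18 at 1 h and 1.64 at 4 h. The list was chosen with earlier results of these data known, so its median and counts are a description. By unadjusted p under 0.05 10 were higher and 0 lower at 1 h, and 7 were higher and 0 lower at 4 h, beside the 7.98% and 5.07% of all genes that were higher. By DESeq2 9 were called at 1 h and 7 at 4 h, all higher, beside 4.53% and 3.91% of all genes in either direction. By edgeR a single gene was called at each time, Nfkbia, the inhibitor that NF-kappa-B induces against itself. It rose from 107 ± 15.9 CPM to 546 ± 98.3 CPM at 1 h and 698 ± 188 CPM at 4 h (SD, n = 3 each), with fitted log2 fold changes of 2.35 and 2.70 and an SE of 0.28 for each. The adjusted p was 0.0455 at 1 h and 0.0247 at 4 h by edgeR. Leaving out each library in turn left these changes at 2.19 to 2.47 and 2.49 to 2.85. The number of pathway genes called at 1 h was 0 on leaving out any library but 4 h replicate 3, and at 4 h any but 1 h replicate 2, 4 h replicate 1 and 4 h replicate 3.

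The chemokine gene Cxcl1 was at 1.18, 1.02 and 4.58 CPM in normal replicates 1, 2 and 3, at 118, 445 and 605 CPM at 1 h, and at 73.0, 204 and 629 CPM at 4 h. Every ischemic library was above every normal one, while the 1 h and 4 h groups overlapped. Of all genes, 26.3% had groups that did not overlap at 1 h against normal and 18.7% at 4 h. The adjusted p of Cxcl1 against normal was 0.117 at 1 h and 0.0712 at 4 h by edgeR. Cxcl2 was at 8.96 to 22.7 CPM at 1 h and 1.90 to 25.2 CPM at 4 h; normal libraries held 0, 0 and 1 read, so no fold is given. Icam1, a leukocyte adhesion molecule, had a log2 fold change of 2.86 at 1 h and 1.95 at 4 h (adjusted p = 0.141 and 0.194 by edgeR).

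**Figure D4:**
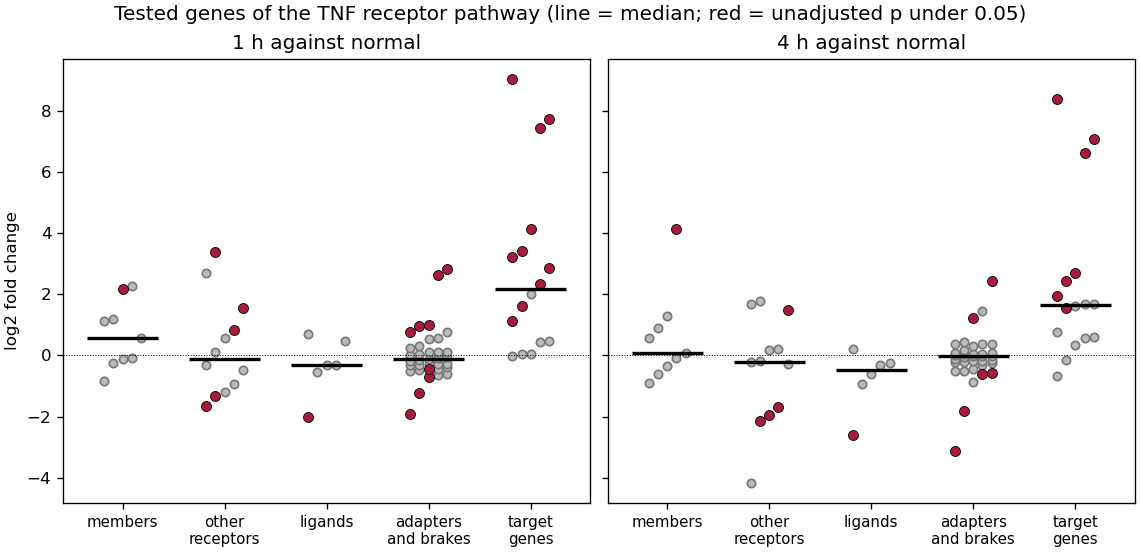
Fitted log2 fold change of every tested gene of the members and of the 4 lists of pathway genes at 1 h and 4 h against normal, with 1 point per gene. Target genes lie mostly above 0, with a median of 2.18 at 1 h and 1.64 at 4 h. The medians of the other pathway lists lie between -0.47 and -0.03. The members' points and median include Relt, which was picked on these values, and all lists were chosen with earlier results of these data known.

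Across the 9 libraries, the genes with a level pattern closest to Relt, among 11272 genes with a mean of at least 5 CPM, were Per1, Nr4a1, Mir7a-1, Slc7a6os and Snx18, with Pearson r of 0.984, 0.969, 0.967, 0.964 and 0.959 on log2 CPM. These values are a description: the 9 points share their group structure. Per1, a repressor of the circadian clock, was at 151 to 197 CPM in normal artery, 218 to 377 CPM at 1 h and 408 to 647 CPM at 4 h. Nr4a1, an immediate early orphan nuclear receptor, was at 76.3 to 112 CPM in normal artery, 396 to 905 CPM at 1 h and 776 to 1765 CPM at 4 h. Both were highest in 1 h replicate 2 among the 1 h libraries and in 4 h replicate 1 among the 4 h libraries, as Relt was. The genes were picked for their likeness to Relt over these same libraries, so a shared order is no separate evidence. Snx18, an endosomal sorting nexin, went from 50.8 to 60.4 CPM in normal artery to 99.8 to 131 CPM at 4 h. Mir7a-1 is the symbol of a microRNA gene, and its counts of 1.77 to 10.3 CPM may come from a transcript that overlaps it.

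**Figure D5:**
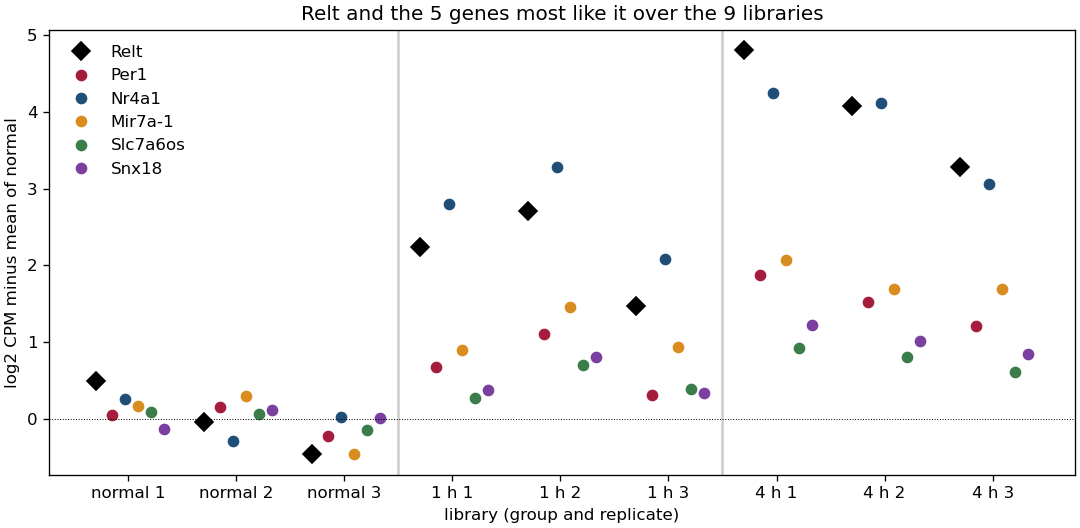
Log2 CPM minus the mean of the normal libraries for Relt and the 5 genes most like it, with 1 point per gene and library. In all 6 genes the highest library is 4 h replicate 1 and the lowest is a normal one, and Relt and Nr4a1 cover the widest range. The 5 genes were picked for their likeness to Relt over these libraries, so the shared order is a description.

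Windows upstream of the start site were found for 4 of these 5 genes, and the 2 that held TGACG or its reverse complement are shown to set beside that of Relt, with TGACG, its complement CGTCA and kappa-B matches in capitals. That of Nr4a1 lies at chr7:134259888-134260137 on the plus strand, 12985 bases inside its annotated span, and that of Snx18 at chr2:46991517-46991766 on the minus strand, both in GRCr8.
Nr4a1: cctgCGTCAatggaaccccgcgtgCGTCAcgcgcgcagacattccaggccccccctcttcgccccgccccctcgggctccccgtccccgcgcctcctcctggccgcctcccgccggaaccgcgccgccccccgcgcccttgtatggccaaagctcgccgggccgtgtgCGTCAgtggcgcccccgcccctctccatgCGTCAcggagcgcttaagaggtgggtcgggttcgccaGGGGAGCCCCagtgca
Snx18: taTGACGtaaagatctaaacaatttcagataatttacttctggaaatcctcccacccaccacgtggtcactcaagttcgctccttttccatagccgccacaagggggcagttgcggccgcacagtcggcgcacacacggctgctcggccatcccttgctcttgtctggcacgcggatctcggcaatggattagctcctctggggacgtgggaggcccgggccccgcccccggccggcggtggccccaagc
Nr4a1 held 4 copies and a kappa-B match, and Snx18 held 1 copy, where 18.2% of all windows hold at least 1. The windows of Relt, Per1 and Slc7a6os held no TGACG and no kappa-B match. That of Per1 also lies inside its annotated span, by 5374 bases.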

How the data were processed

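RNA of 9 superior mesenteric artery samples was extracted with Trizol, made into Illumina libraries and sequenced. The authors deposited 1 table of raw read counts per gene for all libraries; the submitters' processing notes name HISAT2, while the counting program, genome build, annotation and strand setting are not given in the sources used here. The study's methods text describes arrays, but the deposited values are whole counts. Without strand, reads of overlapping genes cannot be told apart.

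Counts were filtered with filterByExpr, scaled by TMM and fitted with edgeR 4.0.16 (limma 3.58.1, R 4.3.3) by group over all 9 libraries, with Benjamini-Hochberg adjustment over 15482 genes; a call needed an adjusted p under 0.05 and a fold over 1.5. Totals of 13114273 to 15504240 reads limit precision for low genes; the common biological variation was 51.6%. DESeq2 1.42.0, other scalings, no filter, the compared groups alone, the nerve score as a covariate, a replicate block and each library left out were alternatives. The code was tested on counts simulated with the dispersion fitted to these libraries. There the edgeR call at 4 h recovered 0% of genes changed 2-fold, 22% of those changed 4-fold and 60.8% of those changed 8-fold. Every pair of libraries differed by far more than sampling noise (chi-square at least 29.8 times its degrees of freedom). Log2 CPM used a prior count of 2.

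The members, lists and markers were chosen with earlier results of these data known. All 9 members were named, with up to 4 genes of each pathway list per comparison with normal (smallest p, unadjusted p under 0.05, mean of at least 1 CPM) and the 5 genes of at least 5 CPM most like Relt. Sequences are from RefSeq (GRCr8), read from the table of start sites.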

Additional observations from a re-analysis of the deposited data

How the results depend on the processing

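The signs of Relt, Tnfrsf1b, Tnfrsf12a and Tnfrsf11b against normal held under all 16 alternatives, and no member other than Relt was called under any. Relt was picked on these values, so counts of members called describe the fits and are no test of it. Calls depended on the test and on single libraries, and the cause was not tested. With DESeq2 1 member (Relt, which was picked on these values) was called at 1 h instead of 0, 12 pathway genes instead of 1 at 1 h and 13 instead of 1 at 4 h, and 702 and 606 of all genes. With library size only, 0 pathway genes were called at 1 h. With only the groups compared, 0 members and 0 pathway genes were called at 4 h, and 4 of all genes at each time. With the nerve score, 4 pathway genes were called at 4 h, and 17 and 123 of all genes. Leaving out libraries left 0 to 1 members at 4 h, the 1 being Relt and only without 4 h replicate 3. It left 0 to 1 pathway genes at 1 h and at 4 h, and 0 to 11 and 1 to 14 of all genes.

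Replicate numbers did not pair the libraries: same-number correlations ran from -0.651 to 0.66, and 4 of 9 libraries correlated best with their own number. A replicate block called 7 of all genes at 1 h and 7 at 4 h. Members called were 0 at 1 h, 1 at 4 h (Relt, picked on these values) and 0 between the times. It turned 4 h against 1 h to 0.041 for Tnfrsf12a and 0.052 for Tnfrsf11b.

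Among the uncalled members, log2 changes turned sign under some alternatives, that of Tnfrsf21 at 4 h from as much as 1.30. With the nerve score these were Fas (0.39) and Ltbr (0.026) at 1 h, and Tnfrsf21 (0.42) and Ltbr (-0.12) between the times. With library size only, which moved the median of all genes to -0.15 at 4 h and -0.24 between the times, they were Tnfrsf1a at 4 h (-0.13) and Ltbr between the times (-0.18). Leaving out each library gave, at 1 h, -0.027 to 0.91 for Tnfrsf1a, -0.78 to 0.016 for Fas and -0.50 to 0.28 for Cd40. At 4 h it gave -0.15 to 0.32 for Tnfrsf1a, -0.76 to 2.61 for Tnfrsf21, -0.26 to 0.019 for Ltbr and -0.62 to 0.012 for Cd40. Between the times it gave -0.81 to 0.12 for Tnfrsf1a, -0.62 to 0.55 for Tnfrsf12a, -0.36 to 0.35 for Tnfrsf11b, -0.71 to 0.19 for Fas, -0.14 to 0.23 for Ltbr and -0.60 to 0.17 for Cd40. With 3 libraries a group and low counts for Cd40, changes of this size could not be resolved.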
